A study of Mus musculus with 7 samples.

Results

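The insulin-like growth factor (IGF) family was followed here in C3H10T1/2 cells, an established mouse line of mesenchymal origin, through 10 genes: the ligands Igf1 and Igf2, the receptors Igf1r and Igf2r, and the binding proteins Igfbp2 to Igfbp7. The genes were chosen by their symbols, and all 10 were found among the 18468 genes of the table of counts. The cells were kept without serum for 12 h and then exposed for 48 h, still without serum, to 2 μM purmorphamine, a small-molecule agonist of Smoothened (n = 4 libraries, numbered 5 to 8), or to the vehicle, 0.02% DMSO (n = 3 libraries, numbered 2 to 4). No gene was introduced or deleted in either group. Nothing in the labels says that the libraries came from separate cultures, so that p-values measure the spread between these libraries, which may be technical.

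IGF1 and IGF2 are small secreted hormones related to insulin. Both act through the IGF1 receptor, a tyrosine kinase that engages insulin receptor substrates, PI3 kinase and Akt, and in mesenchymal cells this pathway is known for roles in growth, survival and differentiation toward bone and fat. The IGF2 receptor, also the cation-independent mannose 6-phosphate receptor, takes IGF2 up for degradation and has no kinase. The IGF-binding proteins hold the ligands outside the cell and prolong their life, block their access to the receptor or release them when cut by proteases such as PAPP-A, whereas IGFBP7 binds IGFs only weakly.

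The treatment was evident in Gli1, a direct target of Hedgehog signaling, with 12, 7 and 11 reads under DMSO and 2522 to 3171 with purmorphamine. Libraries were equalized by the authors to between 14337225 and 14342154 reads, so that reads of a gene can be compared between libraries up to a small offset. The scaling factors of edgeR (TMM) were 0.978 to 0.986 under DMSO and 1.006 to 1.019 with purmorphamine, and the reads printed here are not scaled by them. A count of 0 allows up to 3 reads (0.209 CPM, counting error only). All 10 mesenchymal markers listed for this work were counted and tested, with 379048 to 399813 reads in sum under DMSO and 361020 to 392096 under purmorphamine. Within that sum 4 were higher, 3 lower and 3 not called, where 31.4% of all genes tested were called higher and 31.1% lower. Among the markers called were Vim, which fell from 80155 ± 1150.5 to 42480.0 ± 843 reads (log2 fold change -0.96), Pdgfra (0.76) and Thy1 (0.74). The osteoblast list (6 of 6 counted, 2358 to 2551 and then 2258 to 2471 reads in sum) also held genes that moved apart. Runx2 rose from 1531 ± 72.9 to 2144 ± 99.4 reads (log2 fold change 0.44), whereas Spp1 fell from 843 ± 33.3 to 214.5 ± 22.0 (-2.02) and Dmp1 from 85.0 ± 8.72 to 12.0 ± 4.69 (-2.86), and Bglap had at most 1 read in any library. The adipocyte list (3 of 6 counted) went from between 126 and 143 to between 75 and 89 reads, with Fabp4 and Lipe called lower. The epithelial list (3 of 6) went from between 14 and 23 to between 111 and 136 reads, almost all of them Cdh1, with Krt8 and Krt14 at no more than 1. The endothelial list (5 of 5) went from between 779 and 820 to between 1898 and 2154, almost all of them Tek, with Cdh5 at 0 under DMSO and 21 to 26 under purmorphamine, and Pecam1 at no more than 5. The leukocyte list (4 of 6) went from between 13 and 16 to between 10 and 19 reads, nearly all of them Cd68, with Ptprc at no more than 1. The part of these markers in the results below was not tested. In bulk RNA fewer cells of a type and less RNA per cell cannot be told apart.

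Exposure to purmorphamine increased transcripts for 5 of the 10 IGF genes and decreased transcripts for 2, by edgeR's quasi-likelihood test, with p adjusted over all genes (Benjamini-Hochberg) and the threshold of 0.2 that the study used. Those increased were Igfbp3, Igf2, Igfbp7, Igfbp4 and Igf2r, and those decreased were Igf1 and Igfbp2. Igf1r and Igfbp5 did not pass the test, and Igfbp6, with too few reads, was not tested. Changes at this threshold were common in these cells. Of the 12388 genes tested, 62.5% were called in either direction, 31.4% higher and 31.1% lower, so that a call on its own does not set an IGF gene apart. The read counts of the groups did not overlap for the same 7 of 9 IGF genes, 5 higher and 2 lower, where 49.5% of all genes tested had such groups, 29.1% higher and 20.4% lower. These shares are of deposited counts without the scaling factors, which were lower in every DMSO library, so that the 2 directions are not on an equal footing. Changes of larger size were less common: 7.89% of all genes were at least 1.5-fold higher and 3.2% at least 2-fold. Of the 9 IGF genes tested, 4 (Igfbp3, Igf2, Igfbp7 and Igfbp4) were at least 2-fold higher. The family was chosen with earlier results of these data known, so that this contrast is not an independent result.

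**Figure D1:**
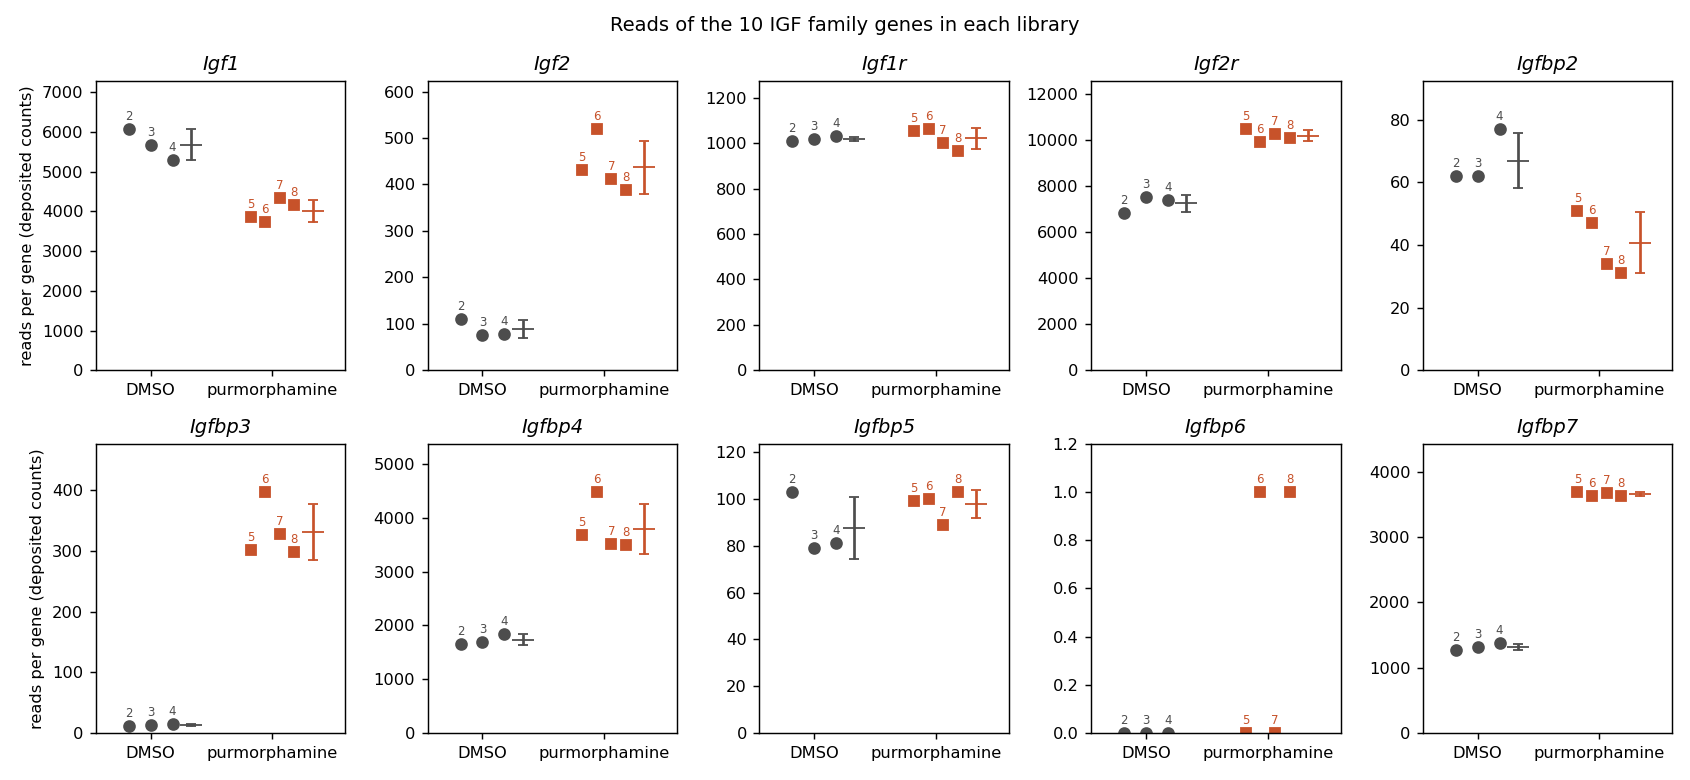
Each panel shows one of the 10 IGF family genes, with the reads per gene as deposited on a linear axis from 0 and each library as a point labelled by its number (circles, DMSO, n = 3; squares, purmorphamine, n = 4; bars, mean and SD, left out where the mean was below 1 read). The groups lie apart for Igf1, Igf2, Igf2r, Igfbp2, Igfbp3, Igfbp4 and Igfbp7 and overlap for Igf1r and Igfbp5, and Igfbp6 has at most 1 read.

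The ligands moved in opposite directions. Igf1 (ENSMUSG00000020053, chromosome 10 from 87858265 to 87937042 in GRCm38), which encodes the ligand that mediates much of the action of growth hormone, had 6069, 5675 and 5303 reads under DMSO and 3856, 3721, 4329 and 4165 under purmorphamine. All purmorphamine values were thus below the lowest vehicle value. The means were 5682 ± 383 reads (SD, n = 3) and 4018 ± 279 (SD, n = 4), and the log2 fold change was -0.55 (standard error, SE, 0.0591, edgeR adjusted p = 8.24e-07). Without purmorphamine replicate 6, the library with the fewest Igf1 reads, it was -0.50.

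Igf2 (ENSMUSG00000048583, chromosome 7 from 142650766 to 142666816), which encodes the ligand prominent in fetal growth and is expressed from the paternal allele in most mouse tissues, had 110, 75 and 79 reads under DMSO and 431, 519, 411 and 388 under purmorphamine. The lowest purmorphamine library was well above the highest vehicle library. Its mean rose from 88.0 ± 19.2 to 437 ± 57.3 reads (log2 fold change 2.26, SE 0.131, edgeR adjusted p = 2.91e-10), the 83rd highest of the 12388 genes tested. Vehicle replicate 2 held the most Igf2 reads of its group, and without it the log2 fold change was 2.46. The reads were counted on the sense strand, and the antisense gene at this locus, Igf2as, had 0 to 3 reads in a library. Even after the increase Igf1 remained the more abundant ligand per length of exon, at 406 ± 28.1 reads per kb of exon against 76.4 ± 10.0 for Igf2, where the vehicle values were 574 ± 38.7 and 15.4 ± 3.35.

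Of the receptors, Igf2r changed and Igf1r did not pass the test. Igf2r (ENSMUSG00000023830, chromosome 17 from 12682406 to 12769664), the scavenger receptor for IGF2 and a sorting receptor for lysosomal enzymes, had 6842, 7509 and 7396 reads under DMSO and 10473, 9907, 10273 and 10093 under purmorphamine. The groups did not overlap, and the purmorphamine libraries were close to each other. Igf2r had a log2 fold change of 0.44 (SE 0.0475, edgeR adjusted p = 7.28e-07), a small increase in a gene with many reads. Igf1r (ENSMUSG00000005533, chromosome 7 from 67952827 to 68233668), the signaling receptor, had 1012, 1017 and 1030 reads under DMSO and 1056, 1062, 1003 and 965 under purmorphamine, so that the vehicle libraries lay within the range of the others. Its log2 fold change was -0.04 (95% interval -0.14 to 0.06, adjusted p = 0.503 from edgeR). Its sign depended on the scaling: with library totals alone, which shifted the median of all genes by 0.0474, it was 0.0029.

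Ratios of a ligand to its receptor within a library remove any factor shared by the genes of that library. The mean log2 ratio of Igf1 to Igf1r reads was 2.48 ± 0.11 (SD, n = 3) under DMSO and 1.97 ± 0.158 (SD, n = 4) under purmorphamine, a difference of -0.50. The mean log2 ratio of Igf2 to Igf2r rose from -6.37 ± 0.368 to -4.55 ± 0.201, a difference of 1.82, since Igf2 increased more than Igf2r. In each pair the groups were separate (p = 0.0286 by a two-sided exact permutation test, which is the lowest p open to 3 libraries against 4, and 0.0286 after Benjamini-Hochberg adjustment over the 4 pairs compared here and below).

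Igf2 and Igf2r are both imprinted, and each has a noncoding neighbor that is expressed from the opposite parental allele. H19 (chromosome 7 from 142575529 to 142578143), a maternally expressed noncoding RNA that lies 72.6 kb from Igf2 and shares its enhancers, had 96, 97 and 94 reads under DMSO and 562, 822, 541 and 601 under purmorphamine. Its log2 fold change was 2.67 (SE 0.143, edgeR adjusted p = 1.01e-10), and the groups lay far apart. Airn (chromosome 17 from 12741311 to 12860136), the paternally expressed antisense RNA that overlaps Igf2r over 28.4 kb, had 286, 287 and 262 reads under DMSO and 643, 580, 727 and 560 under purmorphamine. Airn rose by 1.13 on the log2 scale (SE 0.0915, edgeR adjusted p = 2.26e-08), so that the sense and antisense transcripts of this locus were both increased. The counts do not separate the parental alleles. The log2 ratio of Igf2 to H19 went from -0.14 ± 0.296 to -0.52 ± 0.149, a difference of -0.38 (p = 0.0286, two-sided exact permutation test) with groups that only just failed to overlap, at -0.37 and -0.38. Without vehicle replicate 2, which had more Igf2 than H19 reads, that difference was -0.21.

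**Figure D2:**
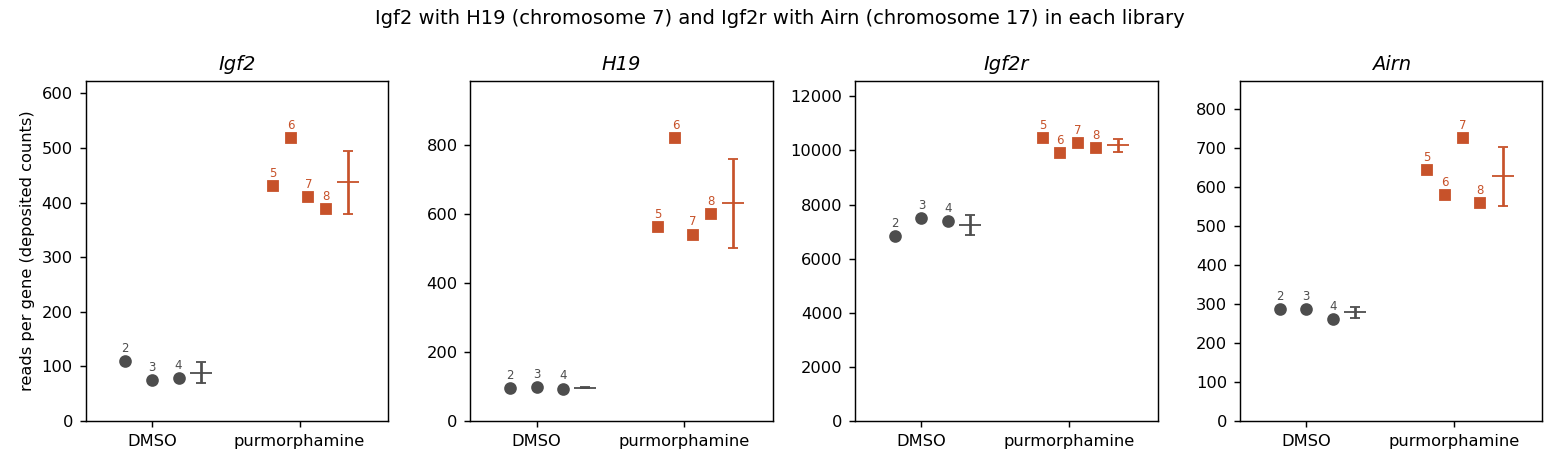
Reads per gene as deposited (linear axes from 0) for Igf2 and H19 on chromosome 7 and for Igf2r and its antisense gene Airn on chromosome 17, with each library as a numbered point (circles, DMSO, n = 3; squares, purmorphamine, n = 4; bars, mean and SD). All 4 genes were higher in every purmorphamine library than in any vehicle library.

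The binding proteins showed the widest spread of responses, from a 23.8-fold rise to a decrease. Igfbp3 (ENSMUSG00000020427, chromosome 11 from 7206086 to 7213923), which encodes the main carrier of IGFs in serum, had 12, 13 and 15 reads under DMSO and 301, 397, 327 and 298 under purmorphamine. It was sparsely counted in all vehicle libraries and well counted in all others. The log2 fold change of Igfbp3 was 4.57 (SE 0.175, edgeR adjusted p = 1.51e-12), the 18th highest of the 12388 genes tested. Igfbp1, its neighbor on chromosome 11 at a distance of 3.54 kb, was not analysed here.

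Igfbp7 (ENSMUSG00000036256, chromosome 5 from 77349240 to 77408041), which encodes a secreted protein of matrix and vessels with low affinity for IGFs, had 1270, 1308 and 1370 reads under DMSO and 3690, 3630, 3674 and 3622 under purmorphamine. Its log2 fold change was 1.43 (SE 0.0469, edgeR adjusted p = 3.05e-13). The purmorphamine libraries were nearly identical, with a coefficient of variation of 0.907%, where counting alone gives 1.65% at this mean. Igfbp4 (ENSMUSG00000017493, chromosome 11 from 99041244 to 99054392), which encodes an inhibitor of IGF action that PAPP-A cleaves, had 1662, 1690 and 1848 reads under DMSO and 3682, 4482, 3521 and 3500 under purmorphamine. It was increased in all purmorphamine libraries, but replicate 6 stood above the other three, and the coefficient of variation was 12.2% where counting alone gives 1.62%. The log2 fold change of Igfbp4 was 1.08 (SE 0.0751, edgeR adjusted p = 2.90e-09) and 1.005 without replicate 6.

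The sequences before the start sites of the 3 binding-protein genes that rose are given here to show how far their promoters resemble each other. They are the 250 bases upstream of the start, from RefSeq (GRCm38.p6), 5′ to 3′ on the strand of the gene, with a TATAAA or GGGCGG motif on either strand in capitals.
Igfbp3, chr11:7213924-7214173, minus strand: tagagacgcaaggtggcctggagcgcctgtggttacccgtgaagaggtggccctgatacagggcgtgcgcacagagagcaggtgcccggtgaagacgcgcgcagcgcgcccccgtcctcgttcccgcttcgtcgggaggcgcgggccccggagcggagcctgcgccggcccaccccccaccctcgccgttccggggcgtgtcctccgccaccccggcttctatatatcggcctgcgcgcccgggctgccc
Igfbp7, chr5:77408046-77408295, minus strand: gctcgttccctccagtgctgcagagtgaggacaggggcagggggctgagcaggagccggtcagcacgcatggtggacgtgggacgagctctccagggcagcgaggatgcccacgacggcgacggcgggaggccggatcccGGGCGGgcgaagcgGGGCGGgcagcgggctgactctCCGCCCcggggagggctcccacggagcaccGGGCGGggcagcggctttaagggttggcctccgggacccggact
Igfbp4, chr11:99040994-99041243, plus strand: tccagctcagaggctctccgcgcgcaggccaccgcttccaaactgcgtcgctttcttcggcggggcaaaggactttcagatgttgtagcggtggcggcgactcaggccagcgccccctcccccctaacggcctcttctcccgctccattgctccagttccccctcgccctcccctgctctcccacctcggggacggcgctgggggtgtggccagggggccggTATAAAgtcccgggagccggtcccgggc
All 3 windows were rich in G and C, at 73.2% for Igfbp3, 74.0% for Igfbp7 and 69.2% for Igfbp4. The median of all promoters listed was 52.4%. Of the IGF genes not called higher, Igf1r was at 77.6% and Igfbp2 at 67.2% and 56.4% in its 2 windows. Igfbp5 was at 58.8%, Igf1 at 52.8% and Igfbp6 at 49.6%. Of the other genes called higher, Igf2r was at 69.2% and Igf2 at 50.8%, 47.6%, 68.8% and 66.0% in its 4 windows. A high content of G and C was thus not particular to genes that rose, nor found in all windows of those that did. The exact strings searched differed. Igfbp4 had a TATAAA that began 28 bases before the start, Igfbp7 had 4 copies of GGGCGG and no TATAAA, and Igfbp3 had neither. The Igfbp3 window did hold TATATAT near its end, which the search for TATAAA does not count, so that Igfbp3 is not shown to differ from Igfbp4 in this respect. TATAAA was found in 12.4% and GGGCGG in 32.7% of the 32851 windows of the same length in the RefSeq table. The consensus of the Gli factors, GACCACCCA, and its shorter core ACCACCC, which lies within the consensus, were searched on both strands as well. Neither was present in the 14 windows listed for the 10 IGF genes, where 0.225% and 3.92% of all windows held them. These matches describe letters in a window and not sites of binding.

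Igfbp2 and Igfbp5 are neighbors on chromosome 1, in opposite orientations with 5.46 kb between their ends, and were of low abundance. Igfbp2 (ENSMUSG00000039323, chromosome 1 from 72824503 to 72852474), which encodes a binding protein with an integrin-binding motif, had 62, 62 and 77 reads under DMSO and 51, 47, 34 and 31 under purmorphamine. The groups did not overlap, although the gap between them was no wider than the spread within the purmorphamine group. Its log2 fold change was -0.76 (SE 0.183, edgeR adjusted p = 0.00249). A two-sided exact permutation test gave p = 0.0571 for Igfbp2, whereas it gave 0.0286 for the 6 other genes called. Igfbp5 (ENSMUSG00000026185, chromosome 1 from 72857932 to 72874884), which encodes a binding protein abundant in bone, had 103, 79 and 81 reads under DMSO and 99, 100, 89 and 103 under purmorphamine. The groups overlapped, and the log2 fold change of 0.11 (95% interval -0.14 to 0.36) had an adjusted p of 0.516 from edgeR. Vehicle replicate 2 decided this result, since without it Igfbp5 was called higher with a log2 fold change of 0.25 (adjusted p = 0.191 from edgeR). The log2 ratio of Igfbp2 to Igfbp5 fell from -0.38 ± 0.327 (SD, n = 3) to -1.27 ± 0.336 (SD, n = 4), a difference of -0.89 between separate groups (p = 0.0286, two-sided exact permutation test).

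Igfbp6 (ENSMUSG00000023046, chromosome 15 from 102144362 to 102149511), which encodes a binding protein that prefers IGF2, had no reads under DMSO and 0, 1, 0 and 1 under purmorphamine. Both groups were within the 3 reads that a count of 0 allows, and a difference was not detectable at this depth.

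**Figure D3:**
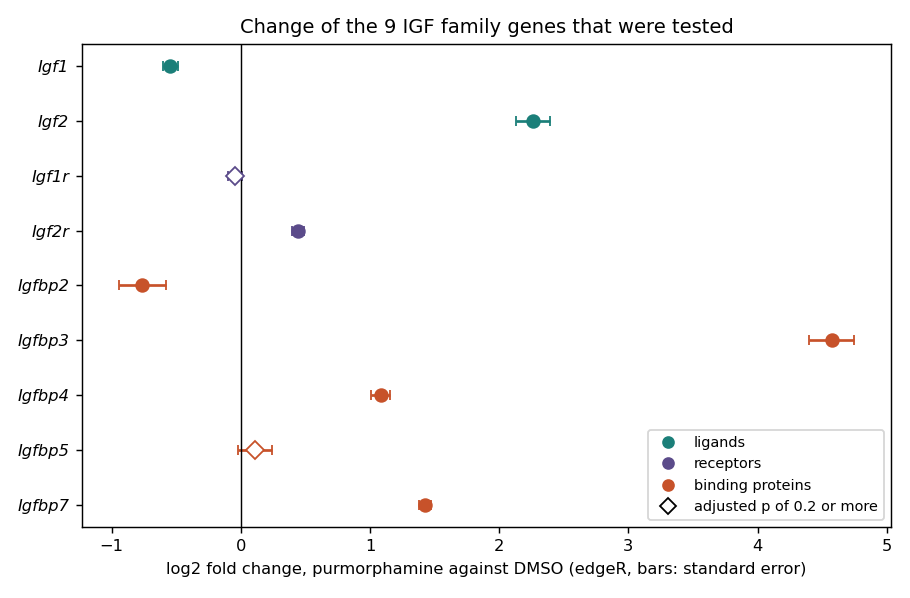
Log2 fold change of purmorphamine against DMSO from edgeR (points) with its standard error (bars) for the 9 IGF family genes tested, colored by role. Open diamonds mark Igf1r and Igfbp5, which did not pass an adjusted p of 0.2, and the values run from -0.76 for Igfbp2 to 4.57 for Igfbp3.

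Levels of different genes were compared as reads per kb of exon, with exon lengths from GENCODE M21, since long genes collect more reads. With vehicle the order was Igfbp7 (1088.5 ± 41.8 reads per kb), Igf2r (779 ± 38.4), Igf1 (574 ± 38.7), Igfbp4 (393 ± 22.7), Igf1r (60.7 ± 0.553), Igfbp2 (36.3 ± 4.69), Igf2 (15.4 ± 3.35), Igfbp5 (14.6 ± 2.22) and Igfbp3 (4.26 ± 0.488), with Igfbp6 at 0. Of the neighbors in this order, only Igf2 and Igfbp5 overlapped between libraries. With purmorphamine Igfbp7 (3022 ± 27.4) and Igf2r (1094 ± 26.1) remained in front, whereas Igfbp4 (860 ± 105) was now above Igf1 (406 ± 28.1). Igfbp3 (106 ± 14.7) was last but Igfbp6 with vehicle and now came next after Igf1, followed by Igf2 (76.4 ± 10.0), so that both were above Igf1r (60.8 ± 2.74). Igfbp2 (22.1 ± 5.27) and Igfbp5 (16.3 ± 1.01) overlapped, and Igfbp6 (0.45 ± 0.519) was last. With the longest transcript as the length the means kept this order in both groups, but the libraries of Igf2r and Igf1 then overlapped with vehicle (815.7 and 805.8 reads per kb), as did those of Igf2r and Igfbp4 (1146 and 991) and of Igf2 and Igf1r (92.6 and 89.5) with purmorphamine, whereas Igfbp2 and Igfbp5 no longer did. Whether the libraries of Igf2 and Igf1r lie apart therefore depends on the length used, whereas the order of their means does not.

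The binding-protein transcripts summed to 1536 ± 67.5 reads per kb with vehicle and 4026 ± 116 with purmorphamine, and most of the sum was Igfbp7 in both groups. Its share was 70.9% ± 0.54 (SD, n = 3) under DMSO and 75.1% ± 2.29 (SD, n = 4) under purmorphamine, and that of Igfbp4 was 25.5% ± 0.376 and 21.3% ± 1.97. Igfbp3 made up 0.277% ± 0.0194 of the sum with vehicle and 2.62% ± 0.293 with purmorphamine, so that the largest increase remained a small part of the transcripts. The share of Igfbp2 went from 2.36% ± 0.202 to 0.546% ± 0.121 and that of Igfbp5 from 0.954% ± 0.177 to 0.404% ± 0.0269, while Igfbp5 reads did not pass the test and the sum grew. Igfbp6 was at 0.0111% ± 0.0128 with purmorphamine. These shares were described and not tested.

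**Figure D4:**
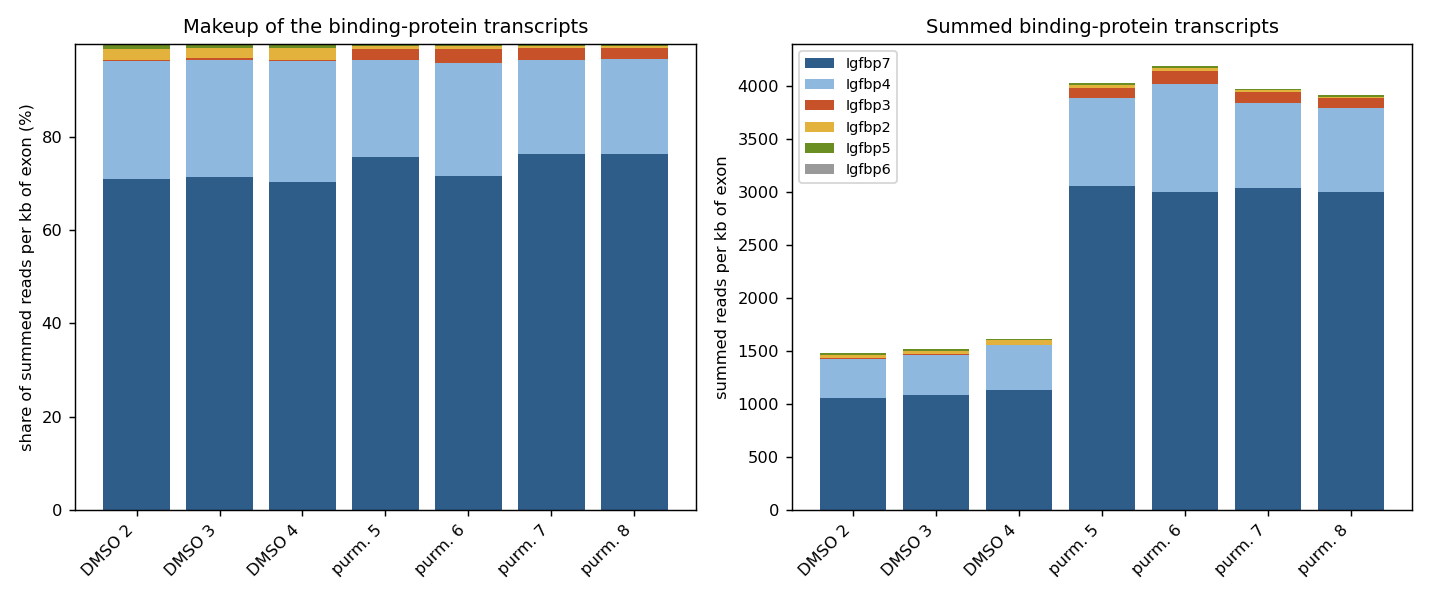
Stacked bars, 1 for each library, give the share of each binding-protein gene in the summed reads per kb of exon (left, percent) and the sum itself (right, reads per kb of exon). Igfbp7 and Igfbp4 fill most of every bar, the Igfbp3 segment is wider in the 4 purmorphamine libraries, and the sums there lie between 3918 and 4187 against 1481 to 1612 with vehicle.

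Purmorphamine replicate 6 had the most reads of its group for Igf2, Igfbp3 and Igfbp4, the fewest for Igf1, and also the most for Gli1 (3171 reads) and H19 (822 reads). It also had the fewest for Igf2r and lay between the other libraries for Igfbp2 and Igfbp7. Without it the log2 fold changes were 2.18 for Igf2, 4.48 for Igfbp3, 0.47 for Igf2r, 1.44 for Igfbp7 and -0.83 for Igfbp2, and no gene of the family changed its call.

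The genes that act around the family were examined in 5 fixed lists, in which 50 of 59 genes were tested. Of these 20 were higher and 16 lower with purmorphamine, and their median log2 fold change was 0.0038, against 0.00376 for all genes tested. Over all genes 31.4% were called higher and 31.1% lower, and the pathway counts were not tested against these shares. The counts higher and lower were 20 and 9 with library totals alone, and 19 and 10 with an adjusted p under 0.05. The changes were mostly small, and 7 of the 50 genes differed by at least 1.5-fold in either direction, where 15.4% of all genes did.

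The proteases that release IGFs from their binding proteins, with the inhibitors of those proteases, had 2 genes higher and 5 lower of 7 tested (median log2 fold change -0.11), where 31.4% and 31.1% of all genes were so called. Pappa2, which encodes a protease for IGFBP3 and IGFBP5, fell from 1358 ± 43.6 to 882 ± 198 reads (log2 fold change -0.67, SE 0.117, edgeR adjusted p = 0.000158). Without purmorphamine replicate 6 its log2 fold change was -0.52. Pappa, which encodes PAPP-A and acts on IGFBP4, and Stc1, a stanniocalcin of the family that inhibits PAPP-A, lay below the size fixed for naming genes and were chosen after their values were seen. Pappa had 2131, 2099 and 2048 reads under DMSO and 2980, 3419, 3422 and 2905 under purmorphamine. Its log2 fold change was 0.56 (SE 0.0608, edgeR adjusted p = 9.28e-07), and that of Stc1 was -0.47 (SE 0.107, edgeR adjusted p = 0.00178). Igfbp4 and Pappa rose, and Stc1 fell. The other genes tested in this list, also below that size, were Htra1, called higher (log2 fold change 0.46), and Adam12 (-0.22), Adam9 (-0.11) and Ctsd (-0.11), called lower. The groups overlapped for Adam9 and Ctsd, though not for Htra1 and Adam12, and the adjusted p of Ctsd was 0.162 from edgeR.

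Of the insulin receptor and the adaptors of both receptors, 5 genes were higher, 4 lower and 3 not called of 12 tested. The shares called over all genes were 31.4% higher and 31.1% lower. Grb14, which encodes an adaptor that inhibits the insulin receptor, had 110, 114 and 114 reads under DMSO and 359, 329, 346 and 348 under purmorphamine, a log2 fold change of 1.57 (SE 0.0863, edgeR adjusted p = 1.43e-10). The libraries of each group lay close together. Socs2, a feedback inhibitor of growth hormone signaling, fell from 209.7 ± 14.2 to 127 ± 7.27 reads (log2 fold change -0.77, SE 0.0958, edgeR adjusted p = 4.72e-06). Grb10, an imprinted adaptor that inhibits both receptors and was named after its values were seen, rose from 13224 ± 138 to 19251 ± 593 reads (log2 fold change 0.49). The insulin receptor itself, Insr, was at 1466 ± 18.8 and 1408 ± 94.4 reads, and was called lower (log2 fold change -0.10, adjusted p = 0.134 from edgeR) although the groups overlapped.

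In the PI3 kinase, Akt and mTOR arm 8 genes were higher, 6 lower and 9 not called of 23 tested (median log2 fold change 0.01). Over all genes tested 31.4% were called higher and 31.1% lower. Pik3r3, which encodes a regulatory subunit of PI3 kinase, fell from 2387 ± 174 to 1565 ± 108 reads (log2 fold change -0.66, SE 0.0606, edgeR adjusted p = 1.14e-07). It was the one gene of the arm past 1.5-fold, and the others ran up to 0.57. The genes of the Igf2 locus and the regulators of Igf2 RNA had 8 tested, beside the same shares over all genes. Of these 5 were higher, 1 lower and 2 not called. Besides H19 and Airn these included Hmga2, which encodes a chromatin protein of fetal and mesenchymal cells, with 278, 327 and 250 reads under DMSO and 627, 583, 723 and 647 under purmorphamine. Its log2 fold change was 1.13 (SE 0.0921, edgeR adjusted p = 2.32e-08). In the list of other binding proteins and the acid-labile subunit, Igfals had 4 to 14 reads and Igfbpl1 at most 5 in a library, and neither was tested.

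**Figure D5:**
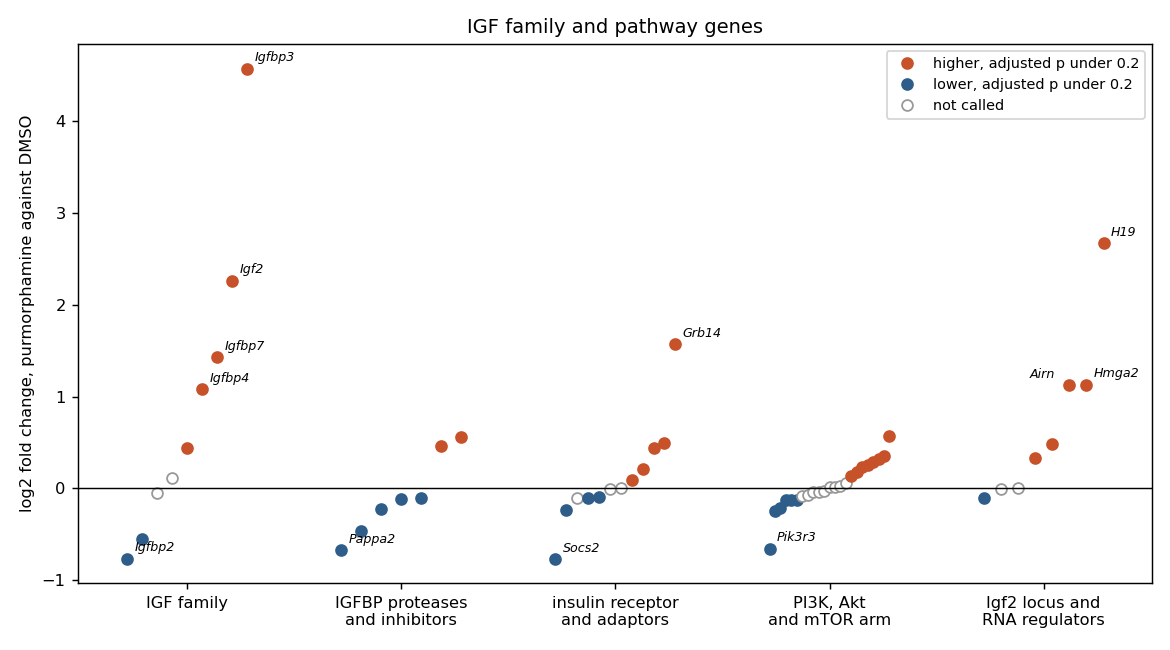
Log2 fold change of purmorphamine against DMSO from edgeR (vertical axis) for each tested gene of the IGF family and of 4 pathway lists, ordered by value within each list. Filled points passed an adjusted p of 0.2 (orange, higher; blue, lower), open points did not, and names mark changes of at least 1.5-fold.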

How the data were processed

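RNA of 7 libraries (3 DMSO, 4 purmorphamine) was sequenced from stranded total RNA libraries depleted of ribosomal RNA. The authors resampled the reads to equal numbers per library and deposited sense-strand counts per gene (per the labels), as whole numbers, so these counts already include that normalization. The submitters' processing notes name STAR 2.5.3a and the build mm9, without their roles, and the annotation is not given in the sources used here. No per-sample column was left unused. Totals were 14337225 to 14342154 reads.

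From the counts, edgeR 4.0.16 in R 4.3.3 was run with TMM factors (0.978 to 1.02), its default filter for low counts (settings 10 and 15, leaving 12388 of 18468 genes) and a quasi-likelihood test without covariates. The standard error was taken as the absolute log2 change over the root of F. The 95% intervals were taken from it with the normal quantile, so that they are somewhat narrower than the F test itself would give. Exact permutation tests took the absolute difference in mean log2 values over 35 assignments, on counts after TMM scaling with 1 added for single genes and on deposited counts with 1 added for ratios. The study's test, limma-voom, was an alternative (limma 3.58.1), as was DESeq2 1.42.0. Other alternatives were other scaling, other filters, stricter thresholds, each library left out, another pseudocount and another gene length. Positions and exon lengths (union of exons) are from GENCODE M21 (GRCm38) by Ensembl identifier, not from the table's coordinates.

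The family and the gene lists were chosen with earlier results of these data known. Named from the lists were called genes with a log2 change of at least 0.58 and a mean of at least 50 reads in a group, at most 5 a list, with H19 and Gli1. The test was checked on simulated counts.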

Additional observations from a re-analysis of the deposited data

Results flagged for a closer look

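In the purmorphamine group 1 library stood apart in the makeup of the binding-protein transcripts. In replicate 6 the share of Igfbp4 in the summed reads per kb was 24.2% and that of Igfbp7 71.7%, against 20.1% to 20.7% and 75.8% to 76.5% in the other three. Its distance from the closest other library, as a part of the whole range of the group, was 0.845 for Igfbp4 and 0.861 for Igfbp7. The shares are parts of the same sum, so that they are not separate results. Of the 26 quantities examined in this way, chance, which gives such a distance in about 1 of 20 groups, would give about 1.3. Without replicate 6 the mean shares with purmorphamine were 20.3% for Igfbp4 and 76.2% for Igfbp7. The distance of this library was not confined to the binding proteins. The squared difference in reads over their sum, averaged over genes, was 8.03 between replicates 6 and 7 and 6.16 between 6 and 8. It was 3.44 between 5 and 6, and 2.98 to 4.43 in the other purmorphamine pairs.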

How the results depend on the processing

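No paired analysis was possible because no replicate number occurs in both groups. The calls of Igf1, Igf2, Igf2r, Igfbp2, Igfbp3, Igfbp4 and Igfbp7 kept direction and side of the threshold in all alternatives but the one that required a 1.5-fold change, which Igf1 (-0.55) and Igf2r (0.44) did not reach. That threshold left 1 IGF gene lower, 977 genes higher and 936 lower among all genes, and 4 pathway genes higher and 3 lower. With library totals alone Igf1r was at 0.0029 (adjusted p = 0.968 from edgeR, and 0.413 to 0.968 over its alternatives) and 9 pathway genes were lower. With an adjusted p under 0.05 the lower pathway genes were 10. Without DMSO replicate 2 Igfbp5 was called higher (0.25, adjusted p = 0.191 from edgeR, and 0.191 to 0.869 over its alternatives), and with single libraries left out its log2 fold change ran from 0.036 to 0.25. With the longest transcript as the length, the shares with vehicle and with purmorphamine were 67.7% and 72.2% for Igfbp7, 27.9% and 23.4% for Igfbp4, 0.339% and 3.23% for Igfbp3, and 3.16% and 0.736% for Igfbp2. All 4 ratios kept direction and an adjusted p under 0.2. Reads were few for Igfbp2, Igfbp5, vehicle Igfbp3 and vehicle Igf2 (mean 88.0), and no cause of these dependences was tested.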
